A study of Mus musculus with 2 samples.

Results

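The genes described here build the ribosome: 43 genes for RNA polymerase I and its factors and for the nucleolar proteins that process ribosomal RNA (rRNA) and assemble the subunits. They were chosen by name, and all 43 were found among the 51912 rows with Ensembl gene identifiers. The data are RNA sequencing of 4T1 cells, a mouse mammary carcinoma line. In the control library the cells carried the label control 4T1. In the co-culture library the 4T1 cells had spent 3 days in the lower chamber of a transwell system with M2 macrophages, the alternatively activated form, in the upper chamber. Each group had 1 library, so no value below has a replicate error and no test between the groups could be made.

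Ribosome production begins in the nucleolus, where RNA polymerase I copies the rRNA genes into a long precursor. Small nucleolar ribonucleoproteins (snoRNPs), which are RNA guides with bound proteins, direct its modification and early cleavage. Assembly factors then fold and cut the precursor while ribosomal proteins join, and the small and large subunits mature along separate routes to the cytoplasm. Fast-growing tumour cells are known for large nucleoli, and the transcription factor Myc is a known activator of many of these genes.

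Values are TPM, a length-normalised abundance that the authors scaled to the same total in each library, so levels of different genes can be set side by side. Differences are log2((co-culture TPM + 1)/(control TPM + 1)), called the log2 ratio below. A gene counted as detected at a mean TPM of at least 1. Sequencing depth cannot be read from TPM. In these bulk samples, fewer cells of a type and less RNA per cell cannot be told apart. Of 20 macrophage and myeloid markers, 10 were at 0 in both libraries, among them Ptprc, Itgam and Adgre1, and Lyz2 was at 0 TPM and 0.04 TPM. Their summed level was 66.7 TPM in control cells and 40.7 TPM after co-culture, nearly all of it Cd68 (57.7 TPM and 27.8 TPM) and Cd14 (8.87 TPM and 12.4 TPM). Among 11 epithelial markers 7 were detected, with Krt8 at 548 TPM and 630 TPM, while Epcam was at 0 in both libraries and Cdh1 at 0.04 TPM and 0.01 TPM. Of 10 fibroblast markers 1 was detected, and the summed level was 7.06 TPM and 11.5 TPM.

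Most of the 43 genes had lower values in co-culture, by modest amounts. All 43 were detected, 42 of them at a mean TPM of at least 10. Lower values were seen for 33 of the 43 genes, where 35.4% of all 11258 detected genes were lower, and higher values for 10, where 64.5% of all detected genes were higher. The median log2 ratio was -0.28, against 0.17 over all detected genes, and 39 of the 43 lay below that all-gene median. By a 1.5-fold limit 10 of the 43 (23.3%) were lower, against 6.37% of all detected genes, and 1 was higher, against 18.6%. By a 2-fold limit 0 were lower, against 2.14%, and 0 were higher, against 4.95%. Ratios were also centred on their median over genes at 10 TPM or more on average. This median ratio centring lowers log2 ratios by about 0.12. With it 39 of the 43 were lower and 4 higher, and 44.5% of all detected genes were lower.

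The summed level of the 43 genes was 5152 TPM in control cells and 4494 TPM after co-culture, a change of -12.8%. Npm1 alone gave 1268 TPM and 1326 TPM of these sums. Without it the sum was 3884 TPM and 3169 TPM, a change of -18.4%. The log2 ratios of the 43 genes ran from -0.89 (Nop56) to 0.72 (Nop10).

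**Figure D1:**
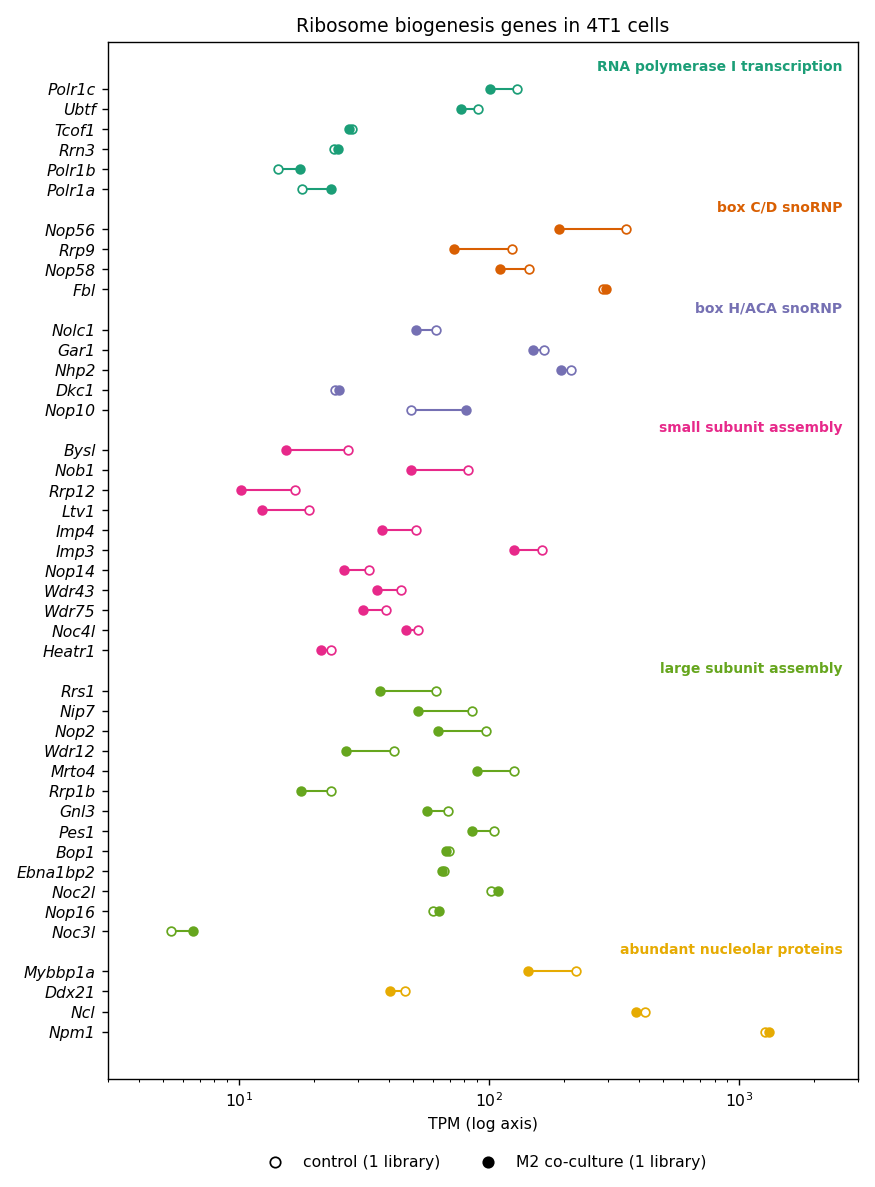
TPM on a log axis for each of the 43 genes, grouped by role and ordered by log2 ratio within a role; open circles are the control library and filled circles the co-culture library. All 11 small subunit assembly genes have the filled circle to the left, while Nop10 and Polr1a have it to the right.

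Promoter sequences from RefSeq (build GRCm38.p6, from 250 bases before to 50 bases after the annotated start) were listed for 37 of the 43 genes, 46 promoters in all. They were searched for the E-box CACGTG, the palindromic site that Myc with its partner Max binds, which reads the same on both strands. It was present in 7 of the 46 promoters (15.2%), in 10.2% of 10822 promoters of detected genes and in 7.15% of all 32851 promoters in the table. Its share was 21.8% among promoters of the other subunit assembly factors described below and 11.8% among those of cytosolic ribosomal proteins. The stretches around these sites are shown because they are the E-box matches among the genes described below. Each runs 5′ to 3′ along the gene's strand, with the E-box in capitals.
Imp4: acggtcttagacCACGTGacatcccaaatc
Nop2: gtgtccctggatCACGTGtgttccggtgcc
Rrn3, site far from the start: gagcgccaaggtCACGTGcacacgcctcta
Rrn3, site near the start: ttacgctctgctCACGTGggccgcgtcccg
Pes1: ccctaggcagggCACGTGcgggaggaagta
Wdr43: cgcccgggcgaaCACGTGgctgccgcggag
Ltv1: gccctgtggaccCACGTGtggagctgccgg
Mybbp1a: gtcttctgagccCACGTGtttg

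The Imp4 site begins 121 bases before the start (stretch chr1:34439696-34439725, plus strand) and the Nop2 site 60 bases before it (chr6:125131811-125131840, plus strand). Rrn3 has 1 site 215 bases and another 48 bases before the start (chr16:13780472-13780501 and chr16:13780639-13780668, plus strand). The other sites lie just after the start: at base 3 in Pes1 (chr11:3963965-3963994, plus strand), base 18 in Wdr43 (chr17:71616220-71616249, plus strand), base 29 in Ltv1 (chr10:13193092-13193121, minus strand) and base 41 in Mybbp1a (chr11:72441355-72441376, plus strand). A match describes these letters and is not evidence of binding. The 7 genes had a median log2 ratio of -0.43, from -0.64 (Nop2) to 0.06 (Rrn3), and the 30 genes with a listed promoter and no E-box had a median of -0.24. Lower values were seen in 6 of the 7 and in 23 of the 30, where 35.4% of all detected genes were lower. At least 1.5-fold lower were 2 of the 7 and 6 of the 30, against 6.37% of all detected genes. The lowest ratio among the 30 was -0.89. The difference between the genes with and without an E-box was not tested.

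The ETS core GGAAGT, searched on both strands, was in 22 of the 46 promoters (47.8%), against 28.5% of promoters of detected genes. It was in 60.3% of the promoters of those other assembly factors and in 47.1% of those of ribosomal proteins. Of the other short motifs, the GC box GGGCGG was in 69.6% of the 46 promoters against 64.9% of promoters of detected genes, the CCAAT box in 28.3% against 38.0%, and the TATA box TATAAA in 4.35% against 6.49%. The 21 genes with an ETS core had a median log2 ratio of -0.30 and the 16 without one -0.27. Lower by at least 1.5-fold were 3 of the 21 and 5 of the 16, where 6.37% of all detected genes were. The difference between these groups was not tested.

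Myc itself had 189 TPM in control cells and 103 TPM after co-culture, with a log2 ratio of -0.87. The partner Max had 49.3 TPM and 45.3 TPM. Of 11 genes of the Myc and Max network 9 were detected, 6 with lower and 3 with higher values. Mxd3, which encodes a partner of Max that represses, had 11.5 TPM in control cells and 29.8 TPM after co-culture, the highest ratio of that network at 1.30. Mxd4, another such repressor, had 9.08 TPM and 4.84 TPM. The part of Myc in the values of the 43 genes was not tested.

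The 6 genes of RNA polymerase I transcription were split, with 3 lower and 3 higher in co-culture, and none reached 1.5-fold. Their median log2 ratio of 0.01 was -0.10 with the median ratio centring. Polr1a, the largest catalytic subunit (chromosome 6 of GRCm38, 71909053 to 71984935), had 17.9 TPM in control cells and 23.4 TPM after co-culture, a log2 ratio of 0.37. Polr1b, the other large subunit of the catalytic core, had 14.4 TPM and 17.7 TPM. Both values lay within the 25th to 75th percentiles of all detected genes (-0.14 to 0.48), and the ratio of Polr1a was 0.14 with length and GC trends removed. Polr1c, a smaller subunit shared with RNA polymerase III, had 130 TPM and 101 TPM, a log2 ratio of -0.36. Among these subunits Polr1c had 9.03 times the TPM of Polr1b in the control and 5.73 times in co-culture.

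Among Rrn3, Tcof1 and Ubtf, factors that work with the polymerase, the differences were small. Rrn3, which makes the polymerase ready to initiate, had 24.0 TPM in control cells and 25.1 TPM after co-culture. Tcof1 (treacle, a nucleolar scaffold that works with the polymerase) had 28.5 TPM and 27.6 TPM. Ubtf, the factor that coats active rRNA genes, had 90.7 TPM and 77.6 TPM, a log2 ratio of -0.22. The small ratio of Rrn3, 0.06, was -0.05 with the median ratio centring, so its direction is not fixed by these data.

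The box C/D snoRNP, whose guide RNAs direct ribose methylation of rRNA, held the gene with the lowest ratio. Nop56, a core protein (chromosome 2, 130274430 to 130279313), had 355 TPM in control cells and 191 TPM after co-culture, a log2 ratio of -0.89 or -46.1% in TPM. Rrp9, a protein of the snoRNP that guides early precursor cleavage, had 124 TPM and 72.4 TPM (log2 ratio -0.77). Nop58, the core partner of Nop56, had 145 TPM and 111 TPM. Fbl, which encodes the methyltransferase fibrillarin, had 286 TPM and 293 TPM, a ratio of 0.04 that was -0.08 with the median ratio centring. The core proteins therefore differed by 0.92 on the log2 scale among themselves. Nop56 was the most abundant of them in the control, and Fbl was in co-culture.

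The box H/ACA snoRNP, which guides the change of uridine to pseudouridine, held the only one of the 43 genes that was at least 1.5-fold higher. Nop10, a small core protein (chromosome 2, 112261926 to 112263269), had 48.9 TPM in control cells and 81.5 TPM after co-culture, a log2 ratio of 0.72 that fell short of 1.5-fold with a TMM scaling factor. The other core proteins moved less. Dkc1, the pseudouridine synthase dyskerin, had 24.2 TPM and 25.1 TPM, Nhp2 had 214 TPM and 195 TPM, and Gar1 had 167 TPM and 151 TPM. Nolc1, a chaperone of snoRNPs, had 61.7 TPM and 51.3 TPM. The 4 core genes spanned 0.87 on the log2 scale, and Nhp2 was the most abundant and Dkc1 the least abundant in both libraries.

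All 11 genes of small subunit assembly were lower in co-culture, with a median log2 ratio of -0.36 and a range of -0.79 to -0.14. Their summed level was 552 TPM in control cells and 413 TPM after co-culture, a change of -25.2%. Bysl (bystin; chromosome 17, 47599331 to 47611492) had 27.4 TPM and 15.4 TPM, a log2 ratio of -0.79. Nob1, the endonuclease that makes the final cut at the end of the small subunit rRNA, had 82.6 TPM and 49.1 TPM (-0.74). Rrp12, an export factor, had 16.8 TPM and 10.2 TPM (-0.66). Ltv1, an assembly factor of the small subunit, had 19.2 TPM and 12.4 TPM, just short of the 1.5-fold limit and past it with a pseudocount of 0.1.

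Bysl carries a limit of annotation. Its exons share 361 bases (9.37%) with exons of Ccnd3 on the opposite strand, and Ccnd3 had 40.9 TPM in control cells and 78.2 TPM after co-culture, the opposite direction. The sources used here do not say whether the libraries kept strand, so reads from this stretch cannot be assigned to either gene with certainty.

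The other small subunit genes had ratios closer to 0. Imp4, a protein of the early precursor particle, had 51.1 TPM in control cells and 37.6 TPM after co-culture. Its partner Imp3 had 163 TPM and 127 TPM, and the log2 ratios of the pair, -0.43 and -0.36, were within 0.08 of each other. With length and GC trends removed the pair lay further apart, at -0.63 for Imp4 and -0.16 for Imp3. Nop14 had 33.2 TPM and 26.4 TPM, and Noc4l, which binds it, had 52.1 TPM and 46.7 TPM. Among the early-binding proteins that link rRNA transcription to processing, Wdr43 had 44.7 TPM and 35.8 TPM. Wdr75 of the same group had 39.0 TPM and 31.4 TPM. Heatr1, the largest protein of that group, had 23.5 TPM and 21.3 TPM, the smallest difference among the 11 genes with a log2 ratio of -0.14. All 11 genes also had lower values under each scaling tried, while Noc4l reached 0.01 with length and GC trends removed.

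**Figure D2:**
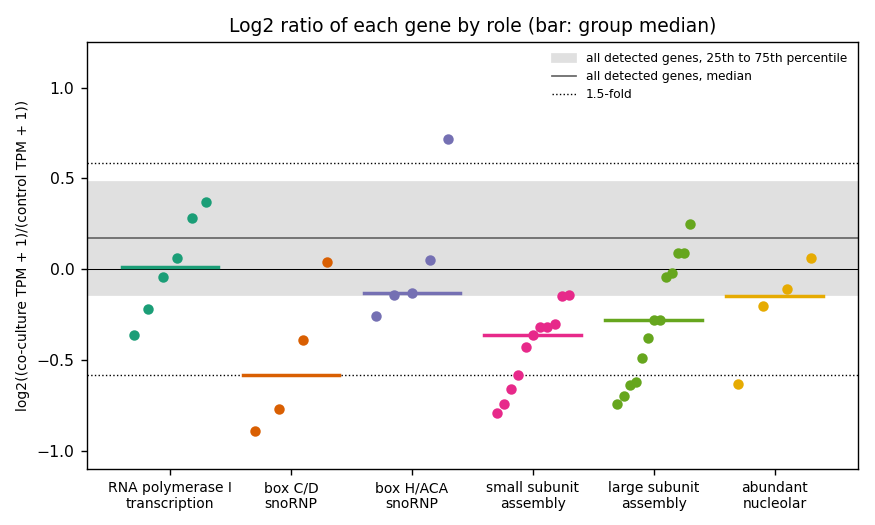
Log2 ratio (co-culture over control, pseudocount 1) of each of the 43 genes as points by role, with coloured bars at the group medians; the grey band is the 25th to 75th percentile of all detected genes (-0.14 to 0.48), the grey line their median and the dotted lines 1.5-fold. All 11 small subunit points lie below 0, and Nop10 is the only point above the upper dotted line.

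Of the 13 genes of large subunit assembly 10 were lower and 3 higher, with a median log2 ratio of -0.28. Lower by at least 1.5-fold were 4 of them (30.8%), against 6.37% of all detected genes. Rrs1, which helps bring a small rRNA and its proteins into the large subunit (chromosome 1, 9545408 to 9547455), had 61.8 TPM in control cells and 36.7 TPM after co-culture, a log2 ratio of -0.74. Nip7 had 85.4 TPM and 52.2 TPM (-0.70). Nop2, an rRNA methyltransferase long used as a proliferation antigen, had 98.0 TPM and 62.7 TPM (-0.64).

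Wdr12 (41.7 TPM in control cells and 26.8 TPM after co-culture, log2 ratio -0.62) forms a complex with Pes1 and Bop1, which is needed to process the large subunit rRNA. The partners differed less: Pes1 had 105 TPM and 86.0 TPM, and Bop1 had 69.4 TPM and 67.2 TPM. Wdr12 was the least abundant of this complex in both libraries, and Pes1 exceeded it 2.52 times in the control and 3.21 times in co-culture. The 3 genes thus differed from each other in ratio by up to 0.57 on the log2 scale.

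The other large subunit factors ranged from lower to slightly higher. Mrto4, which holds the place of a stalk protein, had 126 TPM in control cells and 89.8 TPM after co-culture, and Rrp1b had 23.4 TPM and 17.7 TPM. Gnl3 (nucleostemin, a nucleolar GTPase) had 68.7 TPM and 56.4 TPM. Ebna1bp2 had 66.2 TPM and 65.3 TPM. The 3 genes with higher values were Noc2l at 102 TPM and 109 TPM, Nop16 at 59.8 TPM and 63.6 TPM, and Noc3l at 5.35 TPM and 6.55 TPM. Noc3l was the least abundant of all 43 genes in both libraries. The ratios of Noc2l and Nop16, both 0.09, were below 0 with the median ratio centring (-0.02 and -0.03).

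The abundant nucleolar proteins differed little except for Mybbp1a. Mybbp1a, a nucleolar protein that binds Myb (chromosome 11, 72441355 to 72451768), had 223 TPM in control cells and 143 TPM after co-culture, a log2 ratio of -0.63. Npm1 (nucleophosmin, the main structural protein of the outer nucleolus) had 1268 TPM and 1326 TPM. Ncl (nucleolin) had 420 TPM and 389 TPM, and the RNA helicase gene Ddx21 had 46.3 TPM and 40.3 TPM. The most abundant genes of the set, Npm1 and Ncl, were thus within 0.11 of equal on the log2 scale. The ratio of Npm1, 0.06, was -0.05 with the median ratio centring. The ratio of Ncl, -0.11, was -0.30 with the TMM factor and -0.41 with length and GC trends removed. Npm1 also has 3 near-identical pseudogenes in the annotation, whose summed level was 1.46 TPM and 2.18 TPM. Imp3, Mrto4, Pes1 and Rrs1 each have 1 near-identical copy, and those copies stood at 1.29 TPM or less in both libraries. Noc2l shares 20.9% of its exon bases with Samd11 on the opposite strand, which was at 0.06 TPM and 0 TPM. Nop14 shares 5.27% with the antisense gene Gm15522, which was at 0 in both libraries.

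Some of these genes carry snoRNA genes inside them, so that a single transcript yields both a protein message and guide RNAs. In the GENCODE M21 annotation 6 of the 43 genes (14.0%) had at least 1 snoRNA gene within their span on the same strand, against 2.03% of 10367 detected protein-coding genes. Nop56 held 5, among them Snord57 and Snord110, Nop58 held 4, and Ncl, Gnl3 and Wdr43 held 3 each. Dkc1 held 1. The 6 hosts had a median log2 ratio of -0.30, with 5 lower, and the other 37 genes had a median of -0.26. Outside the 43 genes, 204 detected protein-coding hosts had a median of 0.05 and the 10120 genes without a snoRNA gene 0.17.

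Other factors of subunit assembly, none of them among the 43 genes, were also lower more often than higher. Of all detected genes 35.4% were lower and 64.5% higher. Of 40 other small subunit factors 27 (67.5%) were lower and 13 (32.5%) higher, with a median log2 ratio of -0.16. By the 1.5-fold limit 3 (7.5%) were lower and 1 (2.5%) higher, against 6.37% and 18.6% of all detected genes. Tsr2, an escort of a ribosomal protein, had 38.2 TPM in control cells and 21.2 TPM after co-culture. Rcl1 had 83.9 TPM and 55.1 TPM. Bms1, a GTPase that binds Rcl1, went the other way, at 15.2 TPM and 23.5 TPM. A further listed gene, Riok2, matched no row by name and was not analysed here.

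Of 45 other large subunit factors 34 (75.6%) were lower and 11 (24.4%) higher, with a median of -0.20. At least 1.5-fold lower were 4 (8.89%) and higher 2 (4.44%), against 6.37% and 18.6% of all detected genes. Zfp622, a late cytoplasmic factor, had 57.3 TPM in control cells and 29.6 TPM after co-culture, a log2 ratio of -0.93. Wdr74 had 95.6 TPM and 51.5 TPM, and Nle1 had 57.5 TPM and 34.9 TPM. Together 7 of these 85 factors (8.24%) were at least 1.5-fold lower, a share near the 6.37% of all detected genes, and 0 were 2-fold lower, against 2.14%. Their summed level was 4025 TPM in control cells and 3515 TPM after co-culture.

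**Figure D3:**
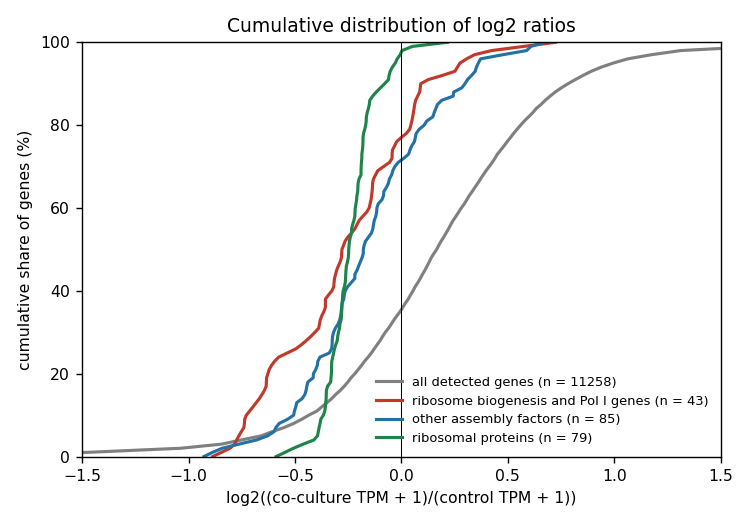
Cumulative share of genes (per cent) against log2 ratio for all detected genes (grey), the 43 ribosome biogenesis and polymerase I genes (red), 85 other assembly factors (blue) and 79 cytosolic ribosomal proteins (green). The red, blue and green curves cross 50% below 0, at -0.28, -0.18 and -0.25, and the grey curve crosses it at 0.17.

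The ribosomal proteins, which these factors assemble into subunits, were lower by small amounts, which shrank further when length and GC trends were removed. Of 79 cytosolic ribosomal protein genes 76 (96.2%) were lower and 3 (3.8%) higher, against 35.4% and 64.5% of all detected genes. Their median was -0.25, with 25th and 75th percentiles of -0.32 and -0.18. Only 1 of them (1.27%) was at least 1.5-fold lower, against 6.37% of all detected genes. That gene, Rpl12, had 211 TPM in control cells and 140 TPM after co-culture. Rps20 had 449 TPM and 309 TPM and Rpl10a 2538 TPM and 1813 TPM. Many of these genes have processed pseudogenes, so their values depend on how shared reads were divided. The spread of the 43 assembly and polymerase genes was wider, from -0.54 to -0.03 between the 25th and 75th percentiles. With trends in length and GC content of the transcripts removed, the ribosomal protein median was -0.09 and 17 of these genes were higher. The median of the 43 genes was -0.25 with these trends removed.

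The polymerases and the later RNA-processing enzymes differed in both directions. Of all detected genes 35.4% were lower and 64.5% higher. Among 16 other RNA polymerase I subunits and factors 9 (56.2%) were lower and 7 (43.8%) higher, with a median of -0.04. At least 1.5-fold lower was 1 (6.25%) and higher were 3 (18.8%), near the 6.37% and 18.6% of all detected genes. Taf1d, of the factor that selects the rRNA promoter, had 79.8 TPM in control cells and 44.5 TPM after co-culture. The small subunits Polr2k (36.1 TPM and 62.9 TPM) and Polr2l (24.6 TPM and 39.2 TPM), which all 3 nuclear polymerases share, were higher. The RNA polymerase III list of 22 genes had 9 (40.9%) lower and 13 (59.1%) higher, near the all-gene shares, and a median of 0.11. There Gtf3c4 had 9.95 TPM and 16.5 TPM, Gtf3c2 had 23.4 TPM and 36.0 TPM, and the subunit gene Polr3e had 12.8 TPM and 7.86 TPM. In that list 2 genes (9.09%) were at least 1.5-fold lower and 3 (13.6%) higher, against 6.37% and 18.6% of all detected genes.

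The RNA exosome trims rRNA precursors from the end. With related nucleases, its list of 15 genes had 6 (40.0%) lower and 9 (60.0%) higher, with a median of 0.10. Those shares were near the 35.4% and 64.5% of all detected genes. Of the 15 genes 2 (13.3%) were at least 1.5-fold higher and 0 lower, against 18.6% and 6.37% of all detected genes. The 2 genes were C1d, an exosome cofactor, at 15.4 TPM and 25.6 TPM, and the core subunit gene Exosc3 at 43.8 TPM and 66.7 TPM. Exosc2, another core subunit, had 65.8 TPM and 46.9 TPM. In the list of rRNA modification and snoRNP assembly 15 of 16 genes were detected. Lower were 7 (46.7%) and higher 8 (53.3%), with a median of 0.08. Znhit3, a snoRNP assembly factor, had 12.3 TPM and 24.3 TPM. It was the only gene there at least 1.5-fold higher (6.67% of the list, against 18.6% of all detected genes). Nat10, which acetylates rRNA, had 37.4 TPM and 26.6 TPM, and the methyltransferase gene Bud23 had 45.9 TPM and 33.8 TPM. These medians, like that of the polymerase III list, lay between those of the 43 genes and of all detected genes, and no test of the difference between lists was made.

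**Figure D4:**
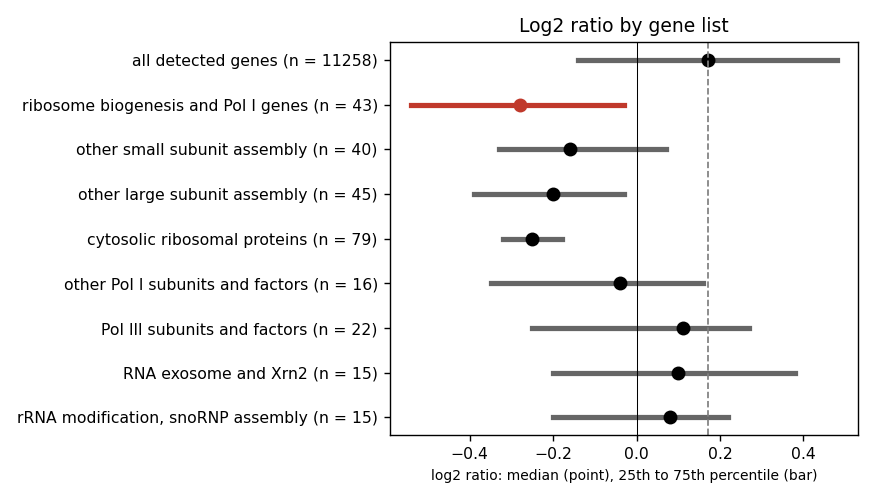
Median log2 ratio (points) and 25th to 75th percentile of genes (bars) for all detected genes, the 43 ribosome biogenesis and polymerase I genes (red) and 7 lists of other genes of the pathway; the dashed line is the median of all detected genes. The lists of subunit assembly and of ribosomal proteins have medians of -0.16, -0.20 and -0.25, and the polymerase III, exosome and modification lists 0.11, 0.10 and 0.08.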

How the data were processed

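RNA of 4T1 cells was sequenced in 2 libraries, 1 per group. Groups followed the treatment labels, which name 4T1 cells for both, although 1 title reads 4T2. The authors deposited TPM values with 2 decimals and 1 column per library. HISAT2 2.1.0, RSEM 1.2.31 and GRCm38.p5 are named in the submitters' processing notes, without roles; for annotation, strand and filters the sources used here say nothing. RSEM divides reads between genes that share sequence. Of 52796 rows, 884 carried MSTRG identifiers and were not used. GENCODE M21 names (GRCm38) matched 51633 of 51912 Ensembl rows.

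The log2 ratio used a pseudocount of 1, which understates changes of low genes. Detection, 1.5-fold and 2-fold limits, alternatives (pseudocounts, filters, scalings, length and GC lowess trends with a span of 0.3) and naming rules were set with earlier results of these data known, as were the members and lists. All 43 members are named, and per other list up to 3 genes of largest absolute ratio whose mean TPM reached 5. Ccnd3, Samd11, Gm15522, Max and the genes quoted only as near limits were chosen after their values were seen. Riok2 was named because it matched no row. Near-identical copies were transcripts with at least 90% identity over at least 50% of the longest transcript (blastn 2.17.0). Copies matching less of it were not counted, so genes with a long longest transcript may have others. The ratio was checked on simulated data. Tools were Python 3.11.15, pandas 2.3.3, NumPy 2.4.6 and statsmodels 0.14.6.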

Additional observations from a re-analysis of the deposited data

How the results depend on the processing

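With 1 library per group nothing could be left out, and depth is unknown. No paired analysis was possible because each group has 1 library. The median log2 ratio of the 43 genes stayed between -0.47 and -0.22 under all alternatives, including those added after the data were seen, and its difference from the all-gene median ran from -0.46 to -0.28 under the planned ones. Between 27 and 39 genes were lower, and between 8 and 13 were at least 1.5-fold lower. The lowest of these counts of lower genes, 27, leaves out 8 genes that share sequence with another gene. The highest, 39, came with the median ratio centring and the TMM factor, under which 44.5% and 50.7% of all detected genes were lower. The 13 came with the TMM factor, under which 10.4% of all detected genes were at least 1.5-fold lower. In the main setting these all-gene shares were 35.4% and 6.37%. The signs of 32 of the 43 genes were the same under every setting.

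Of 293 alternative values, 264 stayed close. The median ratio centring shifted ratios by 0.12 and the TMM factor by 0.19 on the log2 scale. With each of them 4 of the 43 genes were higher, 1 was at least 2-fold lower, and 1 ribosomal protein gene was higher. The polymerase I group had a median of -0.10 with the centring, -0.18 with TMM and -0.05 with length and GC trends removed. With the centring and with TMM the exosome list had medians of -0.02 and -0.09, and the modification list -0.04 and -0.11. Other small subunit factors then had 8 and 6 higher genes. With TMM, 0 of the 43 genes were at least 1.5-fold higher, the all-gene median was -0.01, the polymerase III median was -0.06, and higher genes numbered 4 among other polymerase I factors, 6 among other large subunit factors and 5 in the modification list. At a mean TPM of at least 10 the polymerase III list had a median of -0.09 with 6 higher, and other large subunit factors had 7 higher. With trends removed the box H/ACA median was 0.07, the abundant nucleolar median -0.37, the exosome median -0.04, and 17 ribosomal protein genes were higher. Means in place of medians were 0.05 for box H/ACA and 0.01 for other polymerase I factors.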
